A study of Homo sapiens with 3 samples.

Results

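The mitotic-high OVCAR3 cells were the 10% of cells in each library with the highest summed level of 10 transcripts of the G2 and M phases of the cell cycle. The score was the number of UMIs (unique molecular identifiers, each standing for 1 captured transcript) of CCNB1, CCNB2, CDC20, AURKA, PLK1, DLGAP5, HMMR, CDKN3, PTTG1 and UBE2C per 10000 UMIs of the cell. It was computed in cells with over 1000 detected genes, at most 20% mitochondrial UMIs, a ratio of log10 genes to log10 UMIs over 0.8 and at least 10000 UMIs. Of 20291 such cells, 2028 were members, namely 587 of 5871 after DMSO, 798 of 7983 after the RAC1 inhibitor (RAC1i) and 643 of 6437 after the combination (Combo). The other 5284, 7185 and 5794 cells of the same libraries served as the rest.

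A cell that prepares to divide accumulates cyclin B bound to CDK1, builds a spindle from microtubules, attaches each chromosome to it through kinetochores and then degrades cyclin B and securin through the anaphase promoting complex, the APC/C. Most transcripts for this machinery are made late in the cycle and are cleared after division, so a group of cells high in them is a usual sign of late G2 and M in a growing culture. Transcripts of DNA replication and of the histones that package new DNA belong to S phase, before it. RAC1, the target of the inhibitor used in this culture, is a GTPase that organises actin.

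OVCAR3 is an established line of high-grade serous ovarian cancer. The cells were exposed for 48 h to DMSO, to 50 μM of the RAC1 inhibitor NSC23766, or to 50 μM RAC1i plus 5 μM of the EZH2 inhibitor GSK126 (the inhibitor stocks were made in DMSO). Each condition was a single 10x Genomics 3′ library of 1 cell line, so no difference between conditions has a replicate check and no p-value is given. Intervals are exact 95% intervals (Poisson for levels, conditional binomial for ratios, Clopper-Pearson for shares) and cover counting error only. EZH2i alone was not analysed here.

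The UMIs of the members summed to 2.02e+07 after DMSO, 2.61e+07 after RAC1i and 2.41e+07 after Combo. A member had a median of 35197 UMIs after DMSO, 31102 after RAC1i and 36300 after Combo, against 30739, 25039 and 29825 in the rest. Members were therefore 1.15, 1.24 and 1.22 times as deep as the rest, and they also showed more genes at equal depth, with medians of 3315, 3032 and 3041 genes against 3218, 2948 and 2934 when every cell was thinned to 10000 UMIs. The mitochondrial share was 4.68% in members and 6.47% in the rest after DMSO, but 1.54% against 1.43% after RAC1i and 1.48% against 1.37% after Combo. The part of depth and mitochondrial share in the differences below was not tested. Kept barcodes shared between libraries numbered 23, 15 and 21 for the 3 pairs, and no barcode was a member in more than 1 library.

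All 10 score genes, among them the markers CCNB1, CDC20, AURKA, PLK1, DLGAP5 and HMMR, were higher in members than in the rest of each library, but these values chose the members and are given as a description. At least 1 UMI of every score gene was present in 74.3% of members after DMSO, 67.9% after RAC1i and 68.7% after Combo, against 16.8%, 5.57% and 6.13% of the rest. When members were chosen by the other 9 genes, each score gene was higher in each library. The 30 log2 ratios of the level ran from 1.15 to 3.50. The 10 genes belong to the same program, so this too is a description. Markers of leukocytes, fibroblasts and endothelium summed to 9.20 CPM (UMIs per 1000000 UMIs) in members and 8.86 in the rest after DMSO, to 14.3 and 15.1 after RAC1i and to 15.2 and 14.4 after Combo, and none of the 12 reached 10 CPM in every library. Epithelial and serous markers stood at 0.916, 0.978 and 1.02 times the level of the rest.

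The limit of membership was not the same score in each library. The lowest member had 28.1 score UMIs per 10000 after DMSO, 23.2 after RAC1i and 19.9 after Combo. The next member inside stood at 28.13, 23.25 and 19.90, and the highest cell outside at 28.05, 23.17 and 19.88, so no gap in score separated the groups. Member medians were close to each other, at 35.1, 36.5 and 35.9, while the rest had medians of 8.10, 6.71 and 7.0. The highest score in any cell was 68.1 after DMSO, 172 after RAC1i and 148 after Combo.

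Held to the DMSO limit, fewer treated cells qualified. The score is a share of all UMIs of a cell, and it was not rescaled by TMM. Of the RAC1i cells 610 of 7983, or 7.64% (7.07 to 8.25), scored at or above the lowest DMSO member, as did 432 of 6437 Combo cells, or 6.71% (6.11 to 7.35), against 10.0% of DMSO cells. The order turned with the limit. At a score of 20 the shares were 18.7% after DMSO, 12.2% after RAC1i and 9.96% after Combo. At 35 they were 5.08%, 5.51% and 5.22%, with counting intervals that overlapped. At 50 they were 0.630% (0.444 to 0.868), 2.39% (2.07 to 2.75) and 2.63% (2.25 to 3.05). Under the 5 score genes that include PLK1, the RAC1i share at the DMSO limit was 10.1% and the Combo share 8.44%, and with the 5% of DMSO cells that scored highest as the limit the shares were 5.42% and 5.17%. Except for that 8.44%, these lay within the counting interval of the DMSO share at the same limit.

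**Figure D1:**
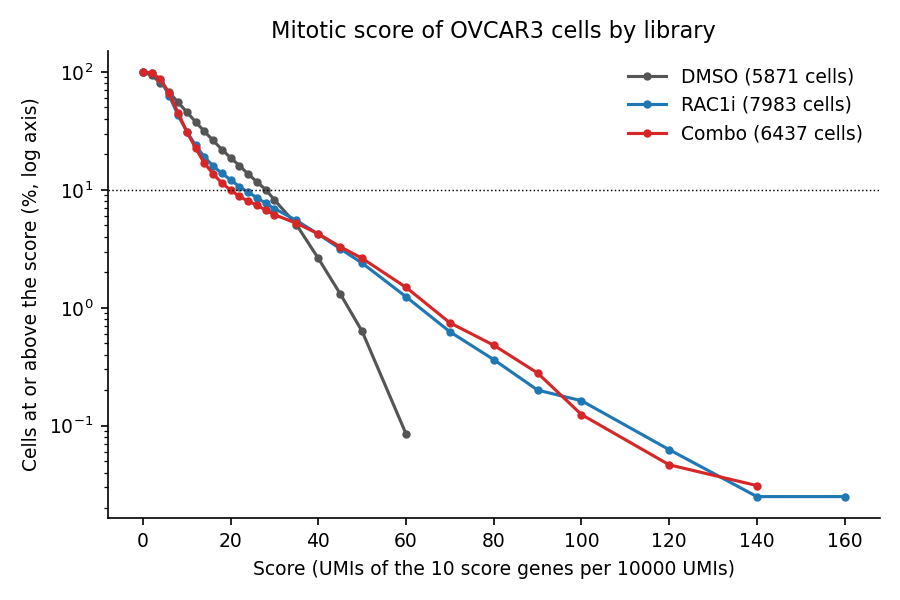
Share of cells (percent, log axis) at or above each mitotic score (score UMIs per 10000 UMIs) in the DMSO, RAC1i and Combo libraries, 1 line per library. The DMSO line lies highest at a score of 20 (18.7%), the lines meet near 35, and at 50 the RAC1i (2.39%) and Combo (2.63%) lines lie above DMSO (0.630%).

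The treated libraries held cells beyond any score seen after DMSO. After RAC1i 55 cells (0.689%) and after Combo 58 cells (0.901%) scored higher than the highest DMSO cell. With every cell thinned to 10000 UMIs the numbers were 57 and 57. These cells had a median of 27926 UMIs after RAC1i, under the 31314 of the other members, and of 43259 after Combo, above the 35397 of the others, so their depth differed from that of other members in opposite directions. CDK1, which is outside the score, stood at 750 CPM in the 55 RAC1i cells and 881 CPM in the 58 Combo cells.

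The makeup of the score also differed between libraries. Securin (PTTG1), which holds separase in check until anaphase, stood in members at 713 CPM after DMSO, 1203 after RAC1i and 1209 after Combo, and gave 19.5%, 29.3% and 28.9% of the members' score UMIs. HMMR, a spindle assembly factor, stood at 224, 450 and 427 CPM in members against 53, 43.2 and 38.9 in the rest, a ratio of 4.22 (4.07 to 4.37), 10.4 (10.1 to 10.7) and 11 (10.6 to 11.3). Aurora kinase A, which matures centrosomes, was 296, 378 and 372 CPM in members against 56.2, 34.9 and 31.1, a ratio of 5.26 (5.09 to 5.43), 10.8 (10.5 to 11.2) and 12 (11.6 to 12.4). In both cases the treated members were higher than the DMSO members while the treated rest was lower than the DMSO rest. The rule used the values of both genes, and its limit differed between libraries, so these levels are given as a description.

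Cyclin B1, the activator of CDK1, ran the other way in members, with CCNB1 at 508, 391 and 381 CPM against 115, 63.7 and 60.5 in the rest. CCNB2 stood at 185, 97.9 and 108 CPM in members and DLGAP5, a microtubule-bundling protein, at 320, 173 and 180 CPM, so these transcripts too were lower in treated members. PLK1, the polo-like kinase of mitotic entry, stood at 119, 138 and 137 CPM, and CDC20, the activator of the APC/C in mitosis, at 178, 141 and 151 CPM. UBE2C, the ubiquitin-conjugating enzyme that works with the APC/C, stood at 701, 726 and 750 CPM and CDKN3, a phosphatase of CDKs, at 410, 412 and 469 CPM.

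Free RNA can place UMIs in cells that do not make a transcript. Shares of cells with a UMI are therefore set beside those in the 10% of cells lowest by the other 9 score genes. All shares are at an equal 10000 UMIs per cell. The lowest cells can still make the transcript of the gene left out, so this comparison does not measure free RNA. PLK1 was seen in 66.6%, 67.7% and 66.9% of members, in 17.2%, 16.1% and 14.4% of the rest and in 3.41%, 8.65% and 8.71% of those lowest cells. UBE2C was seen in 82.5%, 90.1% and 86.6% of members but also in 52.3%, 76.4% and 77.1% of the rest, and in 16.9% of the lowest cells after DMSO against 66.8% and 66.9% after RAC1i and Combo. PTTG1 was seen in 99.5%, 99.7% and 99.5% of members and in 66.4%, 74.7% and 76.2% of the lowest cells. All 3 are score genes, so their shares in members are partly fixed by the rule.

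Outside the score, 6768 genes reached 10 CPM in members or in the rest of every library. Of these, 113 were over 1.5-fold higher in members in all 3 libraries, which is 1.67% of them, and 4 were over 1.5-fold lower, which is 0.0591%. The rule chose the members on genes of the same program, so nothing is read from these counts. Of the 113 genes, 66 were in at least 1 of the 5 mitotic lists, which hold 108 genes at the minimum. In single libraries, 190, 134 and 142 genes were over 1.5-fold higher and 42, 6 and 11 over 1.5-fold lower. The median log2 ratio over all genes at the minimum was 0.07, 0.04 and 0.06. Scaling by the trimmed mean of M values (TMM) in place of total UMIs shifted every log2 ratio of members over rest by -0.17, -0.03 and -0.06, which put ratios that stood above 1 by less than the shift under 1, among them the DMSO ratios of NUMA1, FBXO5 and GMNN given below and the Combo ratio of the epithelial markers. Without the DMSO library the count of lower genes was 17, over the genes at the minimum in the RAC1i and Combo libraries.

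**Figure D2:**
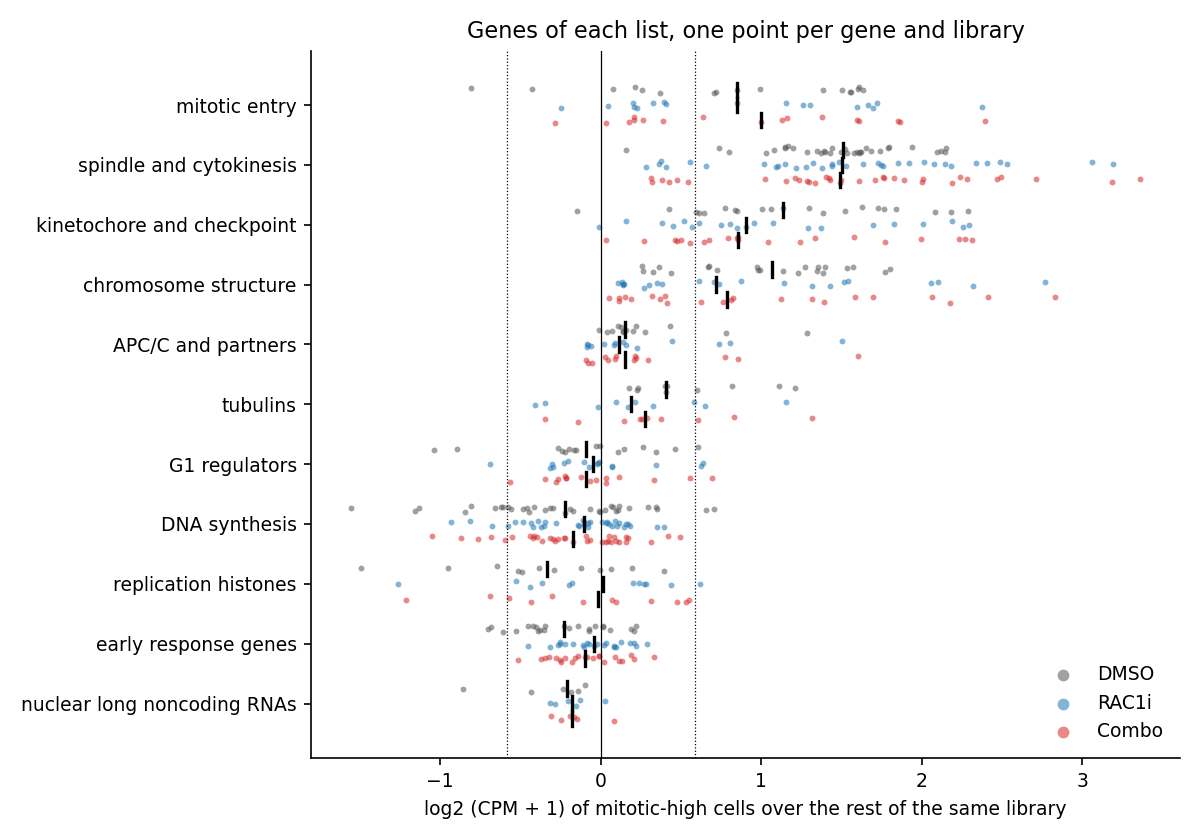
Log2 ratio of the level (CPM + 1) in members over the rest of the same library for each gene of the functional lists at 10 CPM or more, by library, with the median of each list marked. The spindle genes have the highest medians (1.51, 1.51 and 1.49 after DMSO, RAC1i and Combo), and the DNA synthesis genes lie slightly under 0 (-0.22, -0.10 and -0.17).

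Among the lists outside the score genes, those of the spindle and cytokinesis had the highest median. Of 34 such genes at the minimum, 28 were over 1.5-fold higher in members of all 3 libraries and none lower, and their summed level was 2.65, 2.78 and 2.71 times that of the rest after DMSO, RAC1i and Combo. FAM83D, which carries a kinase to the spindle, stood at 110 CPM in members and 23.9 in the rest after DMSO, 204 and 21.4 after RAC1i and 173 and 16 after Combo. The ratio was 4.59 (4.35 to 4.83), 9.53 (9.15 to 9.92) and 10.9 (10.4 to 11.4). DEPDC1 had ratios of 4.53 (4.33 to 4.74), 8.71 (8.34 to 9.10) and 9.64 (9.16 to 10.1). KIF23, the kinesin of the central spindle, kept nearly 1 ratio, 3.27 (3.12 to 3.42), 3.37 (3.24 to 3.51) and 3.33 (3.18 to 3.49), and at the low end of the list NUMA1, a spindle pole protein, had 1.12, 1.30 and 1.31.

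Of the 21 kinetochore and checkpoint genes at the minimum, 15 were higher in all 3 libraries and none lower. CENPA, the histone variant that marks centromeres, stood at 122, 122 and 125 CPM in members and 24.3, 26 and 24.3 in the rest, a ratio of 5.04 (4.79 to 5.30), 4.70 (4.49 to 4.91) and 5.13 (4.90 to 5.38), so both its level and its ratio were alike in the 3 libraries. CENPE, the kinesin that brings chromosomes to the spindle middle, had a like ratio of 4.63, 5.04 and 4.91 at levels that differed, 188 CPM in members after DMSO and 69.5 and 89.4 after RAC1i and Combo. CENPF stood at 691, 379 and 395 CPM in members, 3.1, 4.96 and 4.86 times the rest.

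Of the 22 genes of mitotic chromosomes, 13 were higher in members. TOP2A, the topoisomerase that untangles sister chromatids, stood at 345 CPM in members and 100 in the rest after DMSO, 238 and 34.0 after RAC1i and 223 and 30.4 after Combo, a ratio of 3.43 (3.34 to 3.53), 7.0 (6.76 to 7.24) and 7.32 (7.05 to 7.60). MKI67, the source of the proliferation antigen Ki-67, stood at 438, 225 and 238 CPM against 151, 44.1 and 44.0. Aurora kinase B was 2.68, 3.08 and 3.43 times the rest and survivin (BIRC5), its partner in the chromosomal passenger complex, 2.56, 2.21 and 2.19 times. The cohesin subunit SMC3, used in every cycling cell, was at 1.20, 1.10 and 1.08.

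Of the 17 genes of mitotic entry, 8 were higher in all 3 libraries and none lower. In DMSO members alone 1 was over 1.5-fold lower, CDC25A, at 5.49 CPM against 10.4 in the rest. The lowest by the median of the 3 ratios were MASTL, a kinase that restrains a phosphatase in mitosis, at 0.738, 0.838 and 0.818 times the rest, and the transcription factor MYBL2 at 1.20, 1.03 and 1.13 times. CDK1, the kinase that drives entry, stood at 284 CPM in members and 90.5 in the rest after DMSO, 371 and 70.6 after RAC1i and 358 and 67.5 after Combo, a ratio of 3.13 (3.04 to 3.23), 5.25 (5.12 to 5.39) and 5.31 (5.17 to 5.46). Cyclin A2 was 3.09, 3.38 and 3.1 times the rest. WEE1, the kinase that restrains CDK1, was 1.16 (1.10 to 1.23) times the rest after DMSO, but 2.42 (2.32 to 2.53) after RAC1i and 2.27 (2.16 to 2.38) after Combo. The nuclear import receptor KPNA2, in none of the lists and chosen by the rule for the highest ratios, stood at 509, 604 and 574 CPM against 126, 161 and 157.

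Most genes of the APC/C stood nearly level with the rest. Of its 14 genes at the minimum, 2 were higher in all 3 libraries, UBE2S, which extends the ubiquitin chains, at 2.45, 2.85 and 3.05 times the rest, and the subunit CDC27 at 1.74, 1.69 and 1.73 times. The subunit ANAPC13 was at 0.992, 0.960 and 0.937. FBXO5, an APC/C inhibitor, was 1.11 (1.00 to 1.22), 1.82 (1.65 to 2.00) and 1.88 (1.71 to 2.07) times the rest.

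Promoters of the genes were read because late-cycle genes are known to share a pair of elements, the cell-cycle homology region, here searched as TTTGAA, and the CCAAT box, searched as CCAAT. Both strands of 300 bases around each start site were searched, 250 before and 50 after it, in the RefSeq table of GRCh38.p14. Of the score genes 8 of 10 had an entry. All 8 held CCAAT and 6 held TTTGAA. Of the 113 higher genes 95 had an entry, of which 59 (62.1%) held TTTGAA, 73 (76.8%) CCAAT and 51 (53.7%) both. Among the genes at the minimum, 5510 of 6778 with an entry, the shares were 13.7%, 44.3% and 7.84%, and among all 35116 promoters 15.2%, 34.6% and 5.90%. The variant TTCGAA was in 11 (11.6%) of the 95, against 2.61% of the genes at the minimum and 1.45% of all promoters. A match is a stretch of letters and not a measured site.

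The 80 bases before the start site are given for 5 score genes and for 3 of the genes highest outside the score, to show where these letters lie. They are CCNB1 (chr5:69167070-69167149, plus strand), CCNB2 (chr15:59105066-59105145, plus strand), PLK1 (chr16:23678809-23678888, plus strand), CDC20 (chr1:43358901-43358980, plus strand), HMMR (chr5:163460552-163460631, plus strand), CENPA (chr2:26785976-26786055, plus strand), DEPDC1 (chr1:68497083-68497162, minus strand) and KIF23 (chr15:69414269-69414348, plus strand). Each is written 5′ to 3′ on the strand of the gene, and capitals mark TTTGAA and CCAAT on either strand.
CCNB1: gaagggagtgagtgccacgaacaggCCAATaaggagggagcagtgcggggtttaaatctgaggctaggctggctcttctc
CCNB2: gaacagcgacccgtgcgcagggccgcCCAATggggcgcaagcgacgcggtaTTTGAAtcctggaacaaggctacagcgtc
PLK1: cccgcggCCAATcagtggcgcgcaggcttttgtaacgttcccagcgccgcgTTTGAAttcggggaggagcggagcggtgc
CDC20: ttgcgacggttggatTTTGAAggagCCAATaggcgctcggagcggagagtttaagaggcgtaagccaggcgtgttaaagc
HMMR: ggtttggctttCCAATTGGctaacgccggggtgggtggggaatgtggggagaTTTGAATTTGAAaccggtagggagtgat
CENPA: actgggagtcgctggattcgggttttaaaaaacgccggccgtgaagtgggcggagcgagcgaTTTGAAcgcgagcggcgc
DEPDC1: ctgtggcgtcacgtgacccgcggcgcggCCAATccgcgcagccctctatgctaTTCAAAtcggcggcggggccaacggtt
KIF23: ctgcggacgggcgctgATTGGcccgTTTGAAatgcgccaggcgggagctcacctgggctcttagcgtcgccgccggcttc
In PLK1 and CCNB2 the first letter of TTTGAA lay 29 bases before the start, with CCAAT upstream at 73 and 54 bases. HMMR held TTTGAA at 28 and again at 22 bases before the start. Its CCAAT match at 69 bases overlaps a match on the other strand. CCNB1 held CCAAT at 55 bases and no TTTGAA in the searched window, and in CENPA TTTGAA lay 18 bases before the start with no CCAAT in the 80 bases shown.

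DNA synthesis genes, which act in S phase, lay on both sides of the rest in members. Of the 35 at the minimum, 2 were over 1.5-fold higher and 8 lower after DMSO, 0 and 3 after RAC1i and 0 and 5 after Combo, and 12, 14 and 14 lay above the rest by any amount. The median log2 ratio of the list was -0.22, -0.10 and -0.17. None of its genes was over the fold higher in all 3 libraries and 3 were lower, MCM2 and MCM6, subunits of the replicative helicase, and UNG, which removes uracil from DNA. UNG stood at 7.32 CPM in members and 23.5 in the rest after DMSO, 13.3 and 26.4 after RAC1i and 14.3 and 30.6 after Combo. MCM6 was 0.443 (0.399 to 0.491), 0.546 (0.479 to 0.619) and 0.524 (0.460 to 0.595) times the rest. The summed level of the list was 0.930, 0.893 and 0.873 times the rest. Among its highest genes by the median of the 3 ratios were E2F8, a repressor of the E2F family, and GMNN, which encodes the licensing inhibitor geminin. E2F8 stood at 11.8 CPM in members and 14.8 in the rest after DMSO and was 1.36 and 1.47 times the rest after RAC1i and Combo, and GMNN stood at 1.08, 1.29 and 1.35 times.

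Among 12 replication histone genes at the minimum, HIST2H2AC was lower in all 3 libraries, at 0.336, 0.393 and 0.413 times the rest. HIST1H4C, a histone H4 gene, stood at 162 CPM in members and 314 in the rest after DMSO, 290 and 418 after RAC1i and 303 and 451 after Combo, a ratio of 0.515 (0.497 to 0.533), 0.694 (0.678 to 0.711) and 0.673 (0.657 to 0.689). HIST2H2BE, by contrast, was at 0.689 after DMSO but 1.57 and 1.51 after RAC1i and Combo. Histone genes are near copies of each other and a 3′ tag may be split between them, so single values are uncertain. How fully a 3′ library captures histone transcripts was not tested, and neither was which of the listed genes belong to S phase in these cells. Of the 16 G1 regulators at the minimum only CCNG2, an atypical cyclin, was over 1.5-fold higher in members in all 3 libraries, at 1.53, 1.59 and 1.66 times, a call that the TMM shift took away after DMSO, and E2F1, the factor that starts S phase, was at 0.477, 0.596 and 0.658.

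**Figure D3:**
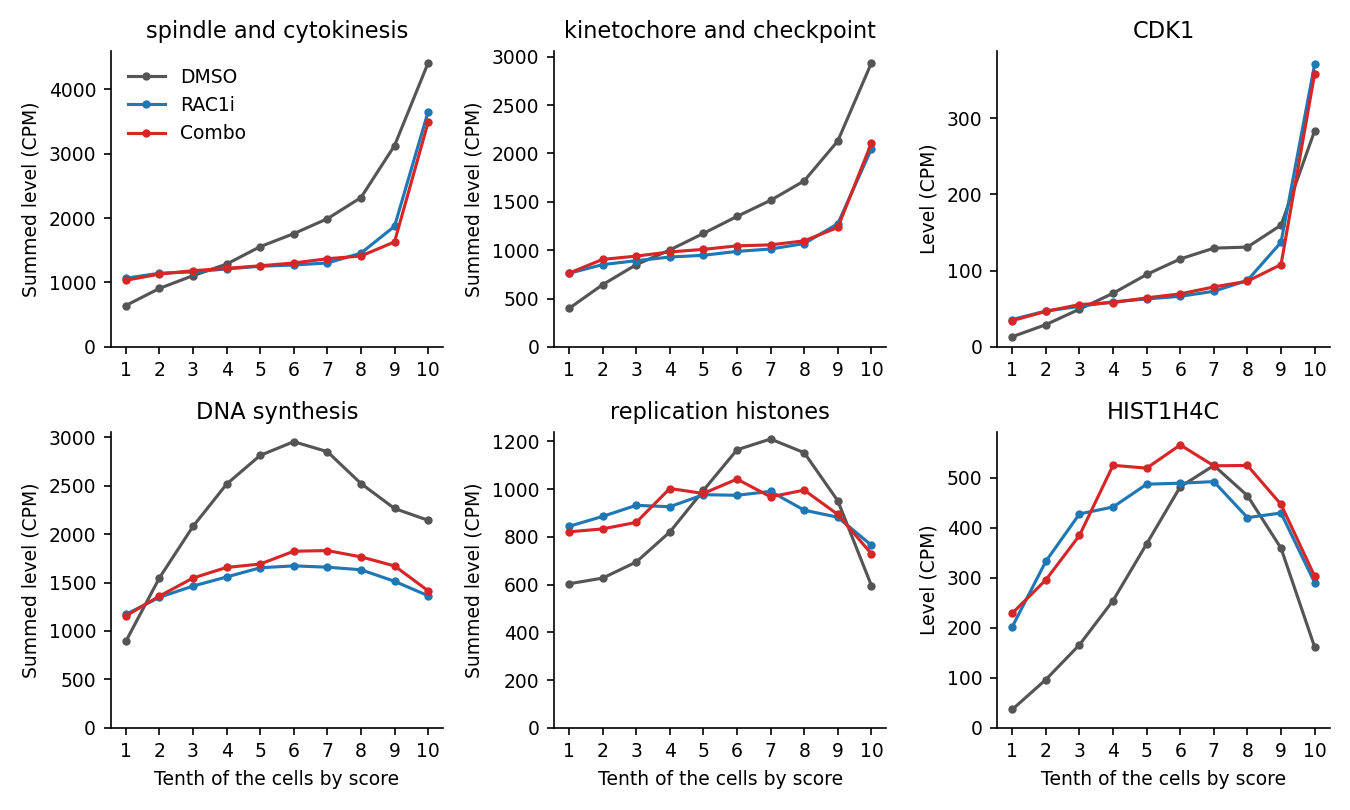
Level (CPM) of the spindle, kinetochore, DNA synthesis and replication histone lists (summed) and of CDK1 and HIST1H4C in 10 equal groups of cells ordered by mitotic score, with 1 line per library and the members as group 10. In the DMSO library the levels climb or turn over many groups, whereas in the RAC1i and Combo libraries the spindle list and CDK1 step up mainly between groups 9 and 10.

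Ranking all cells by score placed the members at the end of different slopes. After DMSO the spindle list ran from 641 CPM in the 10% of cells with the lowest score to 3125 in the ninth group of 10 and 4409 in the members. After RAC1i it ran from 1065 to 1872 and 3652, and after Combo from 1034 to 1630 and 3487. The step from the ninth group to the members was thus the smaller part of the range after DMSO and the larger part after treatment. The score that orders the groups was itself stepped in this way. Its median went from 22.9 in the ninth group to 35.1 in members after DMSO, from 16.9 to 36.5 after RAC1i and from 15.0 to 35.9 after Combo. CDK1 ran from 13.3 to 160 and 284 CPM after DMSO, from 35.9 to 137 and 371 after RAC1i and from 34.5 to 108 and 358 after Combo. HIST1H4C peaked below the members, at 524 CPM in the seventh group after DMSO, 492 in the seventh after RAC1i and 565 in the sixth after Combo, and DNA synthesis peaked at 2955, 1673 and 1830 CPM, against 2143, 1364 and 1415 CPM in members.

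The members were themselves graded. From the lowest to the highest 20% of members by score, CDK1 went from 192 to 431 CPM after DMSO, from 207 to 617 after RAC1i and from 136 to 716 after Combo. HIST1H4C went from 235 to 110 CPM, from 334 to 238 and from 317 to 274. The score orders both gradients, and they are given as a description.

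Among the tubulins, 2 of 10 were higher in all 3 libraries, TUBA1C at 2.32, 2.23 and 2.5 times the rest and TUBA1B at 1.77, 1.57 and 1.78 times. RAC1, the target of the first inhibitor, stood at 535 CPM in members and 449 in the rest after DMSO, 626 and 601 after RAC1i and 625 and 586 after Combo, a ratio of 1.19 (1.17 to 1.22), 1.04 (1.03 to 1.06) and 1.07 (1.05 to 1.08). EZH2, the target of the second inhibitor, was 1.41, 1.45 and 1.27 times the rest, at 43.8, 17.3 and 18.9 CPM in members. In several further lists no gene at the minimum passed the fold in all 3 libraries in either direction. They were early response (23 of 26 genes at the minimum), heat shock (12 of 12), cholesterol synthesis (14 of 20) and p53 (7 of 15). Also among them were metallothionein (3 of 7), NF-kB (3 of 15), epithelial (11 of 12) and ribosomal (77 of 77). After DMSO alone, 3 early response genes and 1 NF-kB gene were over 1.5-fold lower in members. The nuclear RNA NEAT1 was at 0.551 (0.548 to 0.554) times the rest after DMSO, 0.805 (0.798 to 0.812) after RAC1i and 0.892 (0.884 to 0.899) after Combo.

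UBE2C was unevenly spread over the members. With every cell thinned to 10000 UMIs, 95 of 587 DMSO members, 89 of 798 RAC1i members and 91 of 643 Combo members had no UBE2C UMI, or 16.2%, 11.2% and 14.2%. The mean over all members was 6.85, 7.19 and 7.02 UBE2C UMIs. This split was chosen after its values were seen. Members with at most 1 UBE2C UMI, called UBE2C-low here, numbered 143 (24.4%), 139 (17.4%) and 147 (22.9%), and another 51, 85 and 76 lay just above the limit with 2 or 3 UMIs. As the score is a sum, a member low in 1 score gene needs UMIs of others to reach the limit. Over the 9 other score genes, the median log2 ratio of UBE2C-low to other members was 0.21, 0.27 and -0.24. Of these genes 1 was over 1.5-fold lower in all 3 libraries and 0 were higher.

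UBE2C-low members were also low in CDK1, which is outside the score. At 10000 UMIs, no CDK1 UMI was seen in 81.8% (74.5 to 87.8) of them after DMSO, 69.1% (60.7 to 76.6) after RAC1i and 74.8% (67.0 to 81.6) after Combo, against 10.6%, 10.5% and 13.7% of the other members and 56.9%, 57.5% and 59.6% of the rest. CDK1 stood at 25.9 CPM in UBE2C-low and 347 in other members after DMSO, at 68.8 and 426 after RAC1i and at 53 and 432 after Combo, a ratio of 0.0745 (0.0607 to 0.0904), 0.162 (0.143 to 0.182) and 0.123 (0.108 to 0.139). With members chosen by the 9 other score genes, the log2 ratio was -3.98, -2.74 and -3.23.

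**Figure D4:**
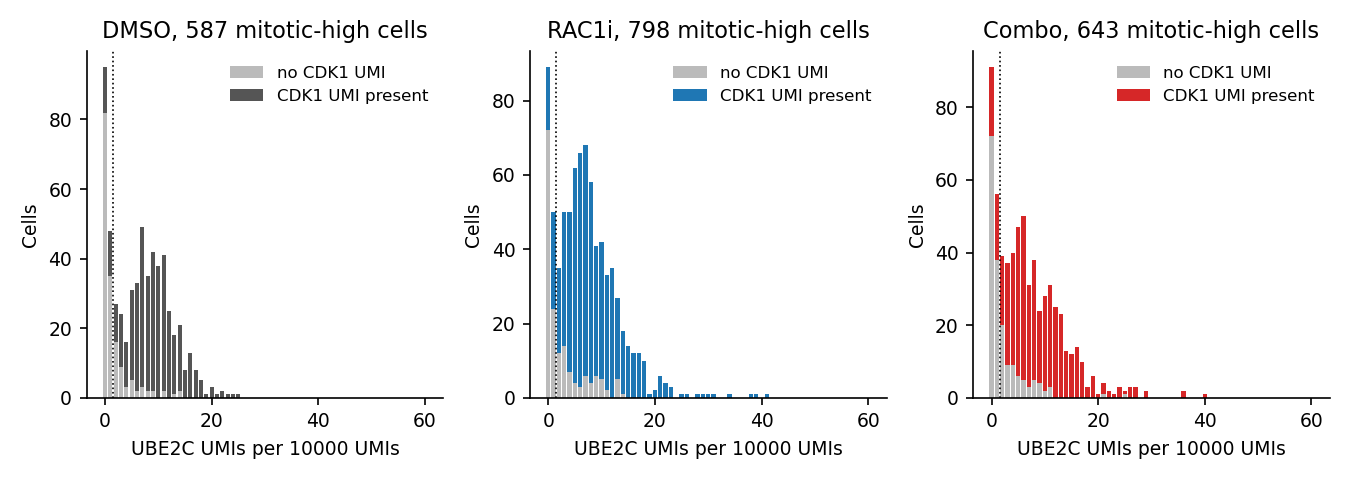
Members by their UBE2C UMIs after thinning each cell to 10000 UMIs, in each library, with the number of members (bars) split by whether a CDK1 UMI was seen. A peak at 0 UMIs lies beside a broad hump, and most cells left of the dotted line (at most 1 UMI) lack CDK1 (81.8%, 69.1% and 74.8% after DMSO, RAC1i and Combo).

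Of the 6943 genes at the minimum, 45 (0.648%) were over 1.5-fold lower in UBE2C-low than in other members in all 3 libraries and 9 (0.130%) over 1.5-fold higher. KPNA2 stood at 106 against 609 CPM, 111 against 693 and 143 against 678. HIST1H4C stood at 15.7 against 198, 66.6 against 331 and 95.2 against 353 CPM, TOP2A at 87.3 against 409, 88.7 against 265 and 70.3 against 259 CPM, and TUBA1C at 285 against 1078, 210 against 790 and 254 against 803 CPM. Aurora kinase B, the kinase WEE1 and the checkpoint protein BUB3 were lower as well, BUB3 at 0.452, 0.375 and 0.406 times the other members. CALM2, a calmodulin gene that was named after its values were seen, was at 0.346, 0.453 and 0.453. Cyclin B1 was not lower after DMSO and RAC1i, at 641 against 475 and 458 against 379 CPM, and stood at 332 against 393 after Combo. HIST2H2BE was higher, at 3.14, 2.97 and 2.59 times the other members.

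UBE2C-low members held fewer UMIs per cell. Their median was 25020 UMIs after DMSO, 26775 after RAC1i and 28877 after Combo, against 38327, 32803 and 39645 in the other members, a ratio of 0.653, 0.816 and 0.728. The rest, at 30739, 25039 and 29825, lay between the groups after DMSO and Combo and below both after RAC1i. Median scores were 32.4, 33.1 and 28.2 against 36.0, 37.3 and 39.1. The part of depth in this split was not tested beyond thinning, and no doublet caller was run. Summed levels of other lists moved with the split in some libraries. Nuclear long noncoding RNAs stood at 0.504 times the other members after DMSO, 0.962 after RAC1i and 0.968 after Combo, early response genes at 1.08, 0.589 and 0.681 times, and transcripts of the mitochondrial genome at 0.924, 1.13 and 1.26 times.

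Between conditions, the members differed in many genes. Of 8692 genes at the minimum in RAC1i or DMSO members, 1784 (20.5%) were over 1.5-fold higher after RAC1i and 3086 (35.5%) lower. Under TMM, which shifted every log2 ratio by 0.22, the numbers were 2388 and 2348, so the surplus of lower genes depended on the scale. For Combo over DMSO 1643 (19.0%) were higher and 2854 (33.0%) lower of 8644, and 2183 and 2197 under TMM, with a shift of 0.19. Between Combo and RAC1i members 51 (0.677%) of 7531 were higher and 76 (1.01%) lower, and 44 and 99 under TMM. Both comparisons with DMSO share its members as control.

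The largest differences among genes at 50 CPM or more were in genes outside the mitotic lists. Such differences were not particular to members. The median log2 ratio of RAC1i over DMSO for the metallothionein list was 4.84 in members and 4.95 in the rest. For the list of genes the study followed it was -0.96 and -1.31, over the 7 of its 9 genes at the minimum. That list also holds the drug targets RAC1 and EZH2, and MKI67, which is in a mitotic list too. A median can rest on a different gene in members and in the rest. The metal-binding MT2A stood in members at 160 CPM after DMSO, 5581 after RAC1i and 7738 after Combo, and the stress gene GADD45B at 11.8, 566 and 492 CPM. The cytokine gene IL6 stood at 1.38, 118 and 61.4 CPM. On the low side were the cadherin gene CDH6, at 492, 28.6 and 18 CPM, and IDH1, a cytosolic isocitrate dehydrogenase, at 160, 9.12 and 8.89 CPM. Of the genes the study followed, PAX8, a factor of the fallopian and ovarian serous lineage, stood in members at 330, 59.0 and 52.7 CPM, the stem cell factor SOX2 at 88.2, 20 and 15 CPM, and ALDH1A1, a stem cell marker enzyme, at 16.3, 2.03 and 1.79 CPM. CD24, a surface marker, stood at 398, 264 and 228 CPM and the deacetylase gene SIRT7 at 42.4, 193 and 211 CPM. OVGP1, an oviduct secretory protein, was counted 3 times in DMSO members, and its ratio after RAC1i was 67.7 (22.9 to 330).

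Few transcripts of members passed the fold between Combo and RAC1i. CXCL1, a chemokine, stood at 365 CPM in RAC1i members and 175 in Combo members, 0.479 (0.461 to 0.496) times. In the groups of cells ranked below the members by score it ran from 348 to 540 CPM after RAC1i. After Combo it ran from 209 to 312 in those groups, so the lower level was not particular to members. IL6 stood at 0.520 (0.489 to 0.554) times the RAC1i members. BNIP3, a mitophagy receptor, was 1.87 (1.73 to 2.01) times higher. Of the 108 mitotic genes outside the score at the minimum, 0 passed the fold in either direction between Combo and RAC1i, while 16 were higher and 43 lower after RAC1i than after DMSO, a split that in the rest was 15 and 47. Over all genes tested, 0.677% and 1.01% passed the fold between Combo and RAC1i and 20.5% and 35.5% between RAC1i and DMSO, and nothing particular to mitotic genes was read from these counts. Under TMM these splits were 25 and 35 in members and 18 and 42 in the rest. EZH2 itself was at 1.09 (0.953 to 1.24) times the RAC1i members.

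For most genes RAC1i gave members and rest a like difference from DMSO. Of 8962 genes at the minimum, 116 (1.29%) had a ratio to DMSO over 1.5-fold higher in members than in the rest and 61 (0.681%) over 1.5-fold lower. The members of each library were chosen at a different score, which enters these ratios for cell-cycle genes, and HMMR and AURKA are score genes. Scaled by total UMIs, 47 of the 108 mitotic genes outside the score had a higher ratio in members than in the rest, with a median log2 difference of -0.05. TMM raised the log2 ratios by 0.22 in members and by 0.08 in the rest. The count and the sign of this median thus depend on the scale, and the count was not retaken under TMM. By list the 47 were 20 of 34 spindle genes, 5 of 21 kinetochore genes and 8 of 22 chromosome genes. The others were 9 of 17 genes of mitotic entry and 5 of 14 of the APC/C list. Among the named genes at 50 CPM or more in members, 6 mitotic genes had ratios over 1.5-fold apart and on opposite sides of 1. Their counting intervals lay off 1 both in members and in the rest. HMMR had a log2 ratio of 1.01 in members and -0.29 in the rest, AURKA 0.36 and -0.67, FAM83D 0.89 and -0.15, CDK1 0.39 and -0.35, DEPDC1 0.26 and -0.66 and WEE1 0.50 and -0.54. HJURP, the chaperone of CENPA, had 1.51 in members and 0.41 in the rest, on 41.5 and 120 CPM in DMSO and RAC1i members. Under TMM the 6 genes from HMMR to WEE1 kept their opposite signs. The score genes CDKN3, at 0.01 and -0.97, and PLK1, at 0.21 and -0.26, also had opposite signs. The counting interval of CDKN3 in members held 1, however, and the PLK1 ratios were under 1.5-fold apart. PTTG1, also a score gene, was higher in RAC1i than in DMSO members and nearly level in the rest. CDC25A, a phosphatase that activates CDKs and was named after its values were seen, had 2.24 in members and 1.11 in the rest, on 5.49 and 29.7 CPM in members.

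**Figure D5:**
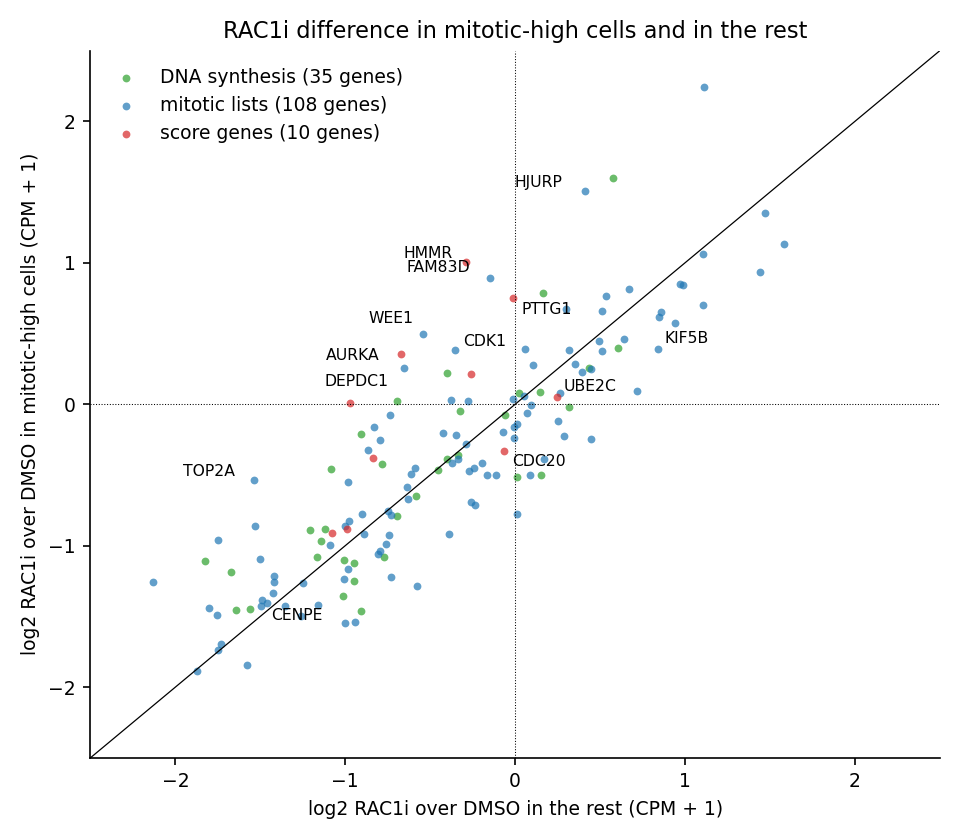
Log2 ratio of RAC1i over DMSO (CPM + 1) in members (y axis) against that in the rest (x axis), 1 point per gene of the score, the mitotic lists and the DNA synthesis list at 10 CPM or more, with the line of equal ratios. Genes follow the line, and HMMR, HJURP, FAM83D, WEE1 and AURKA lie above it. On this scale of total UMIs, 47 of the 108 mitotic genes outside the score lie above it.

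Genes outside the cell cycle also differed. CCN2, a matricellular protein, stood at 31.0 CPM in DMSO members and 66.3 in the DMSO rest but 62.3 and 62.7 after RAC1i, so its log2 ratio was 0.98 in members and -0.08 in the rest, or 0.00 in the rest under TMM. SNAPC1, a subunit of a complex that activates small nuclear RNA genes, was 30.6 and 233 CPM in members and 20.2 and 338 in the rest. Its log2 ratio was 2.89 and 4.0. The zinc finger gene ZNF571 had 2.70 and 3.80, and CIP2A, which restrains the phosphatase PP2A, 0.14 and 0.93. The depth, mitochondrial and score limits given above differ between the same groups, and their part was not tested.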

How the data were processed

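Single-cell RNA-seq of OVCAR3 cells was analysed in 3 libraries, 1 each of DMSO, RAC1i and Combo. The authors made the deposited counts (UMIs per gene and barcode, not normalized) with Cell Ranger 4.0.0 on GRCh38, per the submitters' processing notes. Kept cells and the score are as stated above. No doublet caller was run, and an alternative left out the 8% of cells with the most UMIs in each library.

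UMIs were summed over members and over the rest of each library and scaled to CPM. Log2 ratios used CPM + 1, and a gene entered a comparison at 10 CPM in the higher set. The fold was 1.5. Thinning drew 10000 UMIs per cell without replacement (seed 1). In a simulation of DMSO members against rest, summed Poisson counts were drawn from the profile of the rest. It held no variation between cells and no choice of cells by score. Over 8278 genes at the minimum, 100% of 2-fold changes and 0% of unchanged genes passed the fold, and 95.2% of intervals held the true ratio. Such counts fix that share nearly in advance, so it is a check of the code and not of the intervals in real cells.

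The members and gene lists were chosen with earlier results of these data known. Named genes were drawn from the score genes, the 3 highest and 2 lowest of each list, the 12 highest and 12 lowest outside the score, the 6 largest differences each way between conditions, the 5 highest and 5 lowest members-to-rest contrasts of RAC1i (at 50 CPM), and the genes the study followed, and not every gene this rule gives is printed. The results of 1 further gene list are not reported here. AURKB, BIRC5, CCNA2, MCM2, BUB3, CALM2, CDC25A and the UBE2C split were chosen after their values were seen.

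Scripts used Python 3.11.15, numpy 2.4.6, scipy 1.17.1, pandas 2.3.3, R 4.3.3 and edgeR 4.0.16 (TMM factors only). Alternatives were the mitochondrial limit, the UMI minimum, the share chosen, either set of 5 score genes, thinning, TMM, mean CPM per cell, the CPM minimum and the pseudocount.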

Additional observations from a re-analysis of the deposited data

Results flagged for a closer look

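Among the named genes at 50 CPM or more in members, 7 had RAC1i members above the DMSO members and the RAC1i rest below the DMSO rest, with both counting intervals off 1 and the ratios over 1.5-fold apart. The log2 ratio in members minus that in the rest was 1.29 for HMMR, 1.06 for CCN2, 1.04 for WEE1, 1.04 for FAM83D, 1.03 for AURKA, 0.91 for DEPDC1 and 0.74 for CDK1. With 1 library per condition the difference was not tested, and for CCN2 the rest stood at 0.00 under TMM. HMMR and AURKA are score genes, so the rule used their values. The limit of membership differed between libraries, which enters these differences for cell-cycle genes. Of the 108 mitotic genes outside the score, 47 had a higher RAC1i ratio in members than in the rest when scaled by total UMIs. That count depends on the scale and was not retaken under TMM.

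Cells left out for having under 10000 UMIs also reached the score of the lowest member. They were 275 of 1660 (16.6%, 14.8 to 18.4) after DMSO, 116 of 2232 (5.20%, 4.31 to 6.20) after RAC1i and 82 of 1802 (4.55%, 3.64 to 5.62) after Combo. Their score rests on a median of 19, 19.5 and 16.5 score UMIs.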

How the results depend on the processing

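No paired analysis was possible because each condition had 1 library. Among the alternatives for the values that answer a comparison, 64 left the value within its counting interval or the count within 1.5 times and 59 did not. The log2 ratios of the summed mitotic genes kept their sign in the settings run. Under TMM the median log2 ratio over genes went from -0.20 to 0.04 for RAC1i over DMSO members and from -0.16 to 0.05 for Combo over DMSO members. The cause was not tested beyond what a setting itself changes.

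The summed mitotic genes outside the score stood at log2 0.97, 0.83 and 0.84 in members over the rest after DMSO, RAC1i and Combo. They stood at 1.01, 0.98 and 1.03 for the highest 5% of cells and at 0.92, 0.64 and 0.62 for the highest 20%. They were 0.95, 0.82 and 0.83 thinned, 0.80, 0.81 and 0.78 under TMM, 0.99, 0.87 and 0.83 as mean CPM per cell, 0.99, 0.84 and 0.78 without the 8% of cells with most UMIs, and 0.96, 0.80 and 0.82 with members by the second 5 score genes. The first 5 gave 0.93 after DMSO, a 10% mitochondrial limit gave 0.95 after DMSO, a minimum of 5000 UMIs gave 0.83 and 0.83 after RAC1i and Combo, and one of 20000 gave 0.85 and 0.86.

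The shares of RAC1i and Combo cells at the DMSO limit (7.64% and 6.71%) were 6.91% and 6.04% from 5000 UMIs, 9.34% and 7.65% from 20000, 5.42% and 5.17% at the 5% limit, 12.7% and 10.5% at the 20% limit, 5.2% and 5.2% with the first 5 score genes and 10.1% and 8.44% with the second 5. Without the 8% of cells with most UMIs the Combo share was 5.93%. The DMSO share is fixed by the limit, and no share was recomputed under TMM. Both treated shares at the 5% limit, and the RAC1i share with the second 5 score genes or from 20000 UMIs, lay within the counting interval of the DMSO share. Under the other settings run they lay below it.

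The 113 genes higher in members were 57 at a minimum of 50 CPM. The 4 lower genes were 10 for the highest 5%, 2 for the highest 20%, 0 at 50 CPM, 11 with no minimum and 17 without DMSO, a setting chosen after seeing the data. The 4870 genes past the fold between RAC1i and DMSO members were 1899 at 50 CPM and 8673 with no minimum. The 127 between Combo and RAC1i were 230 for the highest 5%, 70 for the highest 20%, 40 at 50 CPM, 391 with no minimum and 60 with a pseudocount of 5. The 177 with unlike RAC1i ratios were 285, 114, 54, 442 and 88 in the same order, and 283 under TMM.

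For UBE2C-low members, the log2 ratio of CDK1 to other members was -4.27, -3.21 and -3.60 with no UBE2C UMI and -2.45, -1.68 and -2.25 with up to 3. A median member had 122, 120 and 131 score UMIs, which limits the ranking of single cells, and 1 library per condition limits every comparison between conditions.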
